A study of Mus musculus with 6 samples.

Results

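The interferon regulatory factor (IRF) family is a group of transcription factors, and its RNA was examined here in mouse CD8+ T cells cultured with or without an inhibitor of the histone demethylase LSD1. The members were the rows named Irf1, Irf2, Irf3, Irf4, Irf5, Irf7, Irf8 and Irf9, which made 8 of the 16281 genes in the count table, and all 8 had enough reads to be tested. The CD8+ T cells came from spleens of OT1 mice, which are C57BL/6 animals with the transgenic T-cell receptor Tg(TcraTcrb)1100Mjb against an ovalbumin peptide. In all 6 cultures the cells were activated with anti-CD3 (2 μg/ml), anti-CD28 (2 μg/ml) and IL-2 (20 ng/mL) for 48 h and then expanded in IL-2 for 3 days. GSK2879552 (GSK), an irreversible LSD1 inhibitor, was present at 0.5 μM in 3 cultures throughout activation and expansion, and the other 3 cultures received vehicle (Veh). The study asked whether blocking LSD1 alters transcription in T cells prepared for adoptive transfer, and its text names 3 separate mice without saying which cultures shared a mouse. Ages of these donors were not given. Because the cells came from mice with a transgenic receptor and were stimulated by antibody in vitro, they stand for no natural T-cell repertoire.

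IRF proteins share an N-terminal DNA-binding domain that recognises GAAA-containing elements, and they differ in what switches them on. IRF4 is induced by T-cell receptor signals in proportion to their strength and pairs with BATF and JUN proteins to drive expansion and effector differentiation of CD8+ T cells, and IRF8 is its closest relative. IRF1 is induced by interferon gamma, IRF2 competes for the same elements, IRF9 is the DNA-binding subunit of the complex that acts in the type I interferon response, and IRF7 is an interferon-induced amplifier of that response. IRF3 and IRF5 are held latent in the cytoplasm until adaptors and kinases of nucleic acid and Toll-like receptor sensing act on them, so their activity is set mainly on the protein.

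The 6 libraries held between 18288447 and 19846720 counted reads. Normalised values are CPM, in which the count of a gene is set relative to the TMM-scaled total of its library and multiplied by 1000000. The CD8 T cell markers Cd8a and Cd8b1 summed to 900 to 951 CPM in Veh and 897 to 953 CPM in GSK, while Cd4 and Foxp3 together stayed between 3.47 and 5.46 CPM in all 6 libraries. The 5 general T cell markers summed to 2176 to 2264 CPM in Veh and 2102 to 2227 CPM in GSK, of which Cd2 and Lck rose and Cd3d, Cd3e and Cd3g fell. NK cell markers, 3 in number, summed to 1.58 to 2.36 CPM and 2.38 to 3.78 CPM in the respective groups. Fold changes are GSK against Veh on the log2 scale from edgeR's quasi-likelihood fit, with p-values adjusted over all 11698 genes tested by the Benjamini-Hochberg method. With 3 cultures against 3, an exact two-sided permutation test of one gene cannot give a p below 0.1, so single genes were judged only in that fit. The RNA came from bulk cultures, so fewer cells of a type and less RNA per cell cannot be told apart.

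Promoters of 3 members are shown because they belong to the members that rose (Irf4 and Irf8) and to the member with the highest level (Irf1). Each run is the 250 bases before the annotated RefSeq start (GRCm38.p6), 5′ to 3′ on the plus strand, which is the strand of all 3 genes. Capitals mark matches to the gamma-activated site, an interferon gamma response element, searched as TTCNNNGAA.
Irf4, chr13:30748983-30749232: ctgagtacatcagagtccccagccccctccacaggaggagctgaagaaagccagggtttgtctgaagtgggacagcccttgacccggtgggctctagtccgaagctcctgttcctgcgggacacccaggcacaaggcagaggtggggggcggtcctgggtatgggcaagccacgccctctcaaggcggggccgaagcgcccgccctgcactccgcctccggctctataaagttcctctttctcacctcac
Irf8, chr8:120736108-120736357: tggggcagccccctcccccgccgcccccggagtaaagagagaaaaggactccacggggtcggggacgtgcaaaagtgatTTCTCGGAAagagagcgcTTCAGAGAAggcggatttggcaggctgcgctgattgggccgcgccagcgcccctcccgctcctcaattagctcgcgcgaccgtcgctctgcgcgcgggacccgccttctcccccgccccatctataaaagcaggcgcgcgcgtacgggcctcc
Irf1, chr11:53769764-53770013: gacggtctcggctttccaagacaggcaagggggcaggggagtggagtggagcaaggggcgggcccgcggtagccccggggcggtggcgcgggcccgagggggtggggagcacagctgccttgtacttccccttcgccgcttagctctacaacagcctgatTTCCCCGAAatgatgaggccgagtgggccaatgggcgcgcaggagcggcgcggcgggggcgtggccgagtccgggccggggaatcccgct
Of the 8 members, 3 (Irf1, Irf2 and Irf8) had a match to this element in one of their promoter windows of 300 bases. This was 3 of the 11 windows of the members, and 8.29% of all 32817 windows in the table held a match. The interferon-stimulated response element, searched on both strands as GAAANNGAAA, was matched in the window of Irf2 alone (3.43% of all windows). A kappa-B element, GGGNNTTTCC, was also matched in that of Irf2 alone (1.63% of all windows), and an AP-1 element, TGANTCA, in none of the members (7.81% of all windows). None of these matches overlapped another. The windows of Irf4, whose RNA changed most, and of Irf3, Irf5, Irf7 and Irf9 held no match to these letters.

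With LSD1 inhibition the RNA of Irf4 was 1.46-fold higher, that of Irf8 1.14-fold higher and that of Irf5 1.26-fold lower, while Irf1, Irf2, Irf3, Irf7 and Irf9 did not pass the test. At an adjusted p under 0.05, 3 of the 8 members were therefore called, and 32.1% of all genes tested were. The number of members called was 1, Irf4, without Veh replicate 1, Veh replicate 3, GSK replicate 1 or GSK replicate 3, and 4 without GSK replicate 2. Of the members 2 were higher in GSK, beside 16.6% of all genes, and 1 was lower, beside 15.5%. The largest change, that of Irf4, was below the 1.5-fold that the study set beside its adjusted p, and 6.32% of all genes tested passed both thresholds (2.22% upward and 4.09% downward). The median log2 fold change over the 8 members was 0.0035, beside -0.0039 over all genes tested. All 3 GSK libraries lay above all 3 Veh libraries for 2 members and below them for 1, and the same held for 23.7% and 23% of all genes, or 46.7% in either direction.

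**Figure D1:**
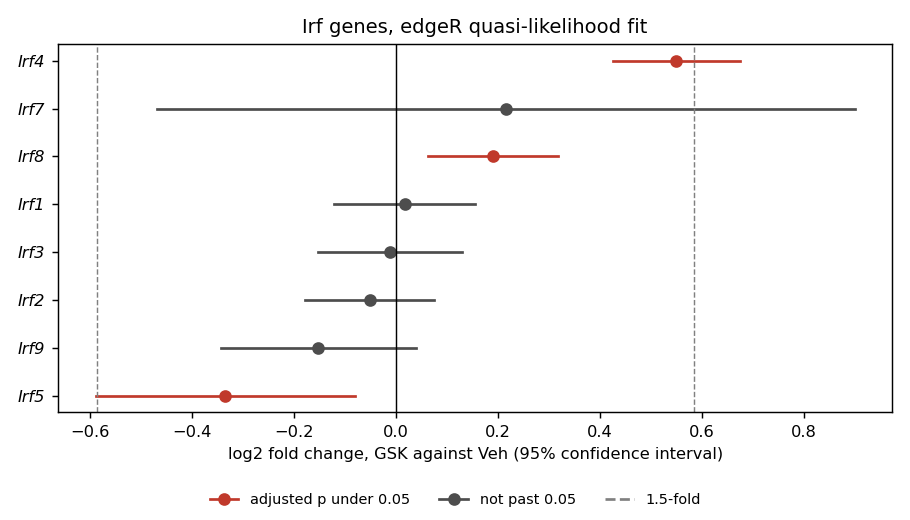
Log2 fold change of each Irf gene, GSK against Veh (x axis), with its 95% confidence interval from the edgeR fit (n = 3 against 3), members in order of the fold change. Irf4, Irf8 and Irf5 are in red, past an adjusted p of 0.05, the interval of Irf7 is the widest of the 8 (from -0.47 to 0.90), and dashed lines mark a fold change of 1.5.

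Irf4 (Entrez gene 16364) lies on the plus strand of chromosome 13 of GRCm38 from 30749233 to 30766981, and its principal transcript has 9 exons. Its RNA stood at 174, 194 and 177 CPM in the Veh replicates 1, 2 and 3 and at 282, 271 and 247 CPM in the GSK replicates. Every GSK culture was above every Veh culture, and the gap between the nearest cultures was larger than the range within either group. The means were 182 ± 10.9 CPM (SD, n = 3) in Veh and 267 ± 17.9 CPM in GSK, a log2 fold change of 0.55 (SE 0.057, adjusted p = 3.3e-05, edgeR). The 95% interval of the fold ran from 1.34 to 1.60, which includes 1.5. Of the 11698 genes tested, 124 had a smaller p and 475 a larger rise. The call held in each of 12 alternative fits, with adjusted p-values up to 6.9e-04, and without Veh replicate 2 or without GSK replicate 3 the log2 fold change was 0.60, past 1.5-fold.

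Irf8 (Entrez gene 15900), on the plus strand of chromosome 8 from 120736358 to 120756694, showed a smaller rise. The Veh replicates were at 106, 116 and 113 CPM and the GSK replicates at 137, 117 and 128 CPM. The groups did not overlap, but GSK replicate 2 was hardly above Veh replicate 2. The log2 fold change was 0.19 (SE 0.059, adjusted p = 0.025, edgeR), and the fold had a 95% interval from 1.05 to 1.25. The adjusted p rose above 0.05 without Veh replicate 1 (0.11), Veh replicate 3 (0.061), GSK replicate 1 (0.15) or GSK replicate 3 (0.057). B cells carry both Irf4 and Irf8, and the 7 B cell markers listed summed to between 6.20 and 8.21 CPM in Veh and between 8.03 and 9.31 CPM in GSK. Among these markers Cd22 rose (log2 fold change 2.65, adjusted p = 1.5e-04), Cd79b was at -0.41 (adjusted p = 0.070), and Cd79a, Ms4a1, Pax5 and Ebf1 had 11 counts or fewer in each library. The means of these 4 genes were higher in GSK than in Veh, at up to 0.36 CPM. Their part in the Irf4 and Irf8 results was not tested.

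**Figure D2:**
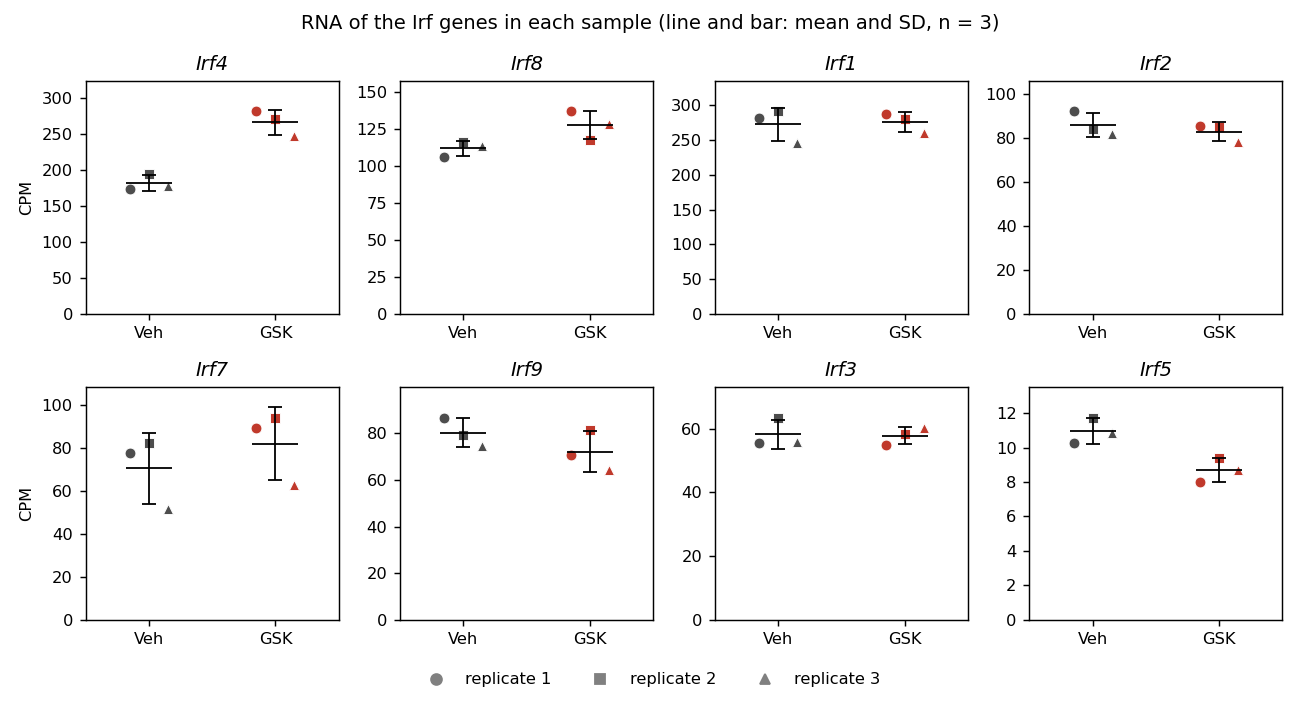
CPM of the 8 Irf genes (y axes from 0, one scale for each gene) in the 3 Veh and 3 GSK cultures, with replicate numbers as symbols and the mean and SD (n = 3) in black. The GSK cultures lie above the Veh cultures for Irf4 (247 to 282 against 174 to 194 CPM), just above for Irf8, and below for Irf5, while the groups overlap for the other 5.

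Irf1, Irf2, Irf9 and Irf7, the members most tied to interferon signalling, did not pass the test between the treatments. Irf1 (Entrez gene 16362, chromosome 11, 53770014 to 53778374) was at 281, 291 and 245 CPM in Veh and 287, 280 and 260 CPM in GSK. The ranges of the groups overlapped almost wholly, and the log2 fold change of 0.017 (SE 0.063, adjusted p = 0.86, edgeR) had a 95% interval of the fold from 0.92 to 1.11. Irf2 (Entrez gene 16363, chromosome 8, 46739745 to 46847458) was at 92.1, 84.0 and 81.6 CPM in Veh and 85.5, 85.2 and 78.1 CPM in GSK. Its log2 fold change was -0.051 (adjusted p = 0.54), and the 95% interval of the fold ran from 0.88 to 1.05. Irf9 (Entrez gene 16391, chromosome 14, 55603985 to 55610030) was at 86.8, 79.3 and 74.5 CPM in Veh and 70.7, 81.5 and 64.2 CPM in GSK. Although 2 of the GSK cultures were below all Veh cultures, GSK replicate 2 was above Veh replicates 2 and 3, and the log2 fold change of -0.15 (SE 0.086) had an adjusted p of 0.21 from edgeR, which was 0.011 without GSK replicate 2.

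Irf7 (Entrez gene 54123), on the minus strand of chromosome 7 from 141263183 to 141266499, varied most within the groups. It was at 77.7, 82.2 and 51.6 CPM in Veh replicates 1, 2 and 3 and at 89.0, 94.0 and 62.5 CPM in GSK replicates 1, 2 and 3. In both groups replicate 3 was the low culture, and the groups overlapped because of it. The log2 fold change of 0.22 (SE 0.26, adjusted p = 0.58, edgeR) had a 95% interval of the fold from 0.72 to 1.87, and without Veh replicate 3 the log2 fold change was 0.034. In an alternative edgeR fit with the replicate numbers as a block, the log2 fold change was again 0.22, with an adjusted p of 0.013. Replicate 3 of Irf7 stood at 64.5% of the mean of replicates 1 and 2 in Veh and at 68.3% in GSK, while over all genes tested the median of this share was 99.8% and 99.9%. Irf1, Irf2 and Irf9 were also lowest in replicate 3 of both groups, with shares from 84.4% to 92.7%, which made 4 of 8 members, against 13.9% of all genes tested. Of the interferon-induced targets listed below, 20 of 20 were lowest in replicate 3 of both groups, with shares from 31.4% to 84.8% in Veh and from 34.1% to 84.3% in GSK. Irf3, Irf4, Irf5 and Irf8 did not follow that pattern, and replicate 3 of Irf8 was at 102% and 101% of the other two. The labels give no batch, date or animal for the replicate numbers, so no values within a batch can be given.

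**Figure D3:**
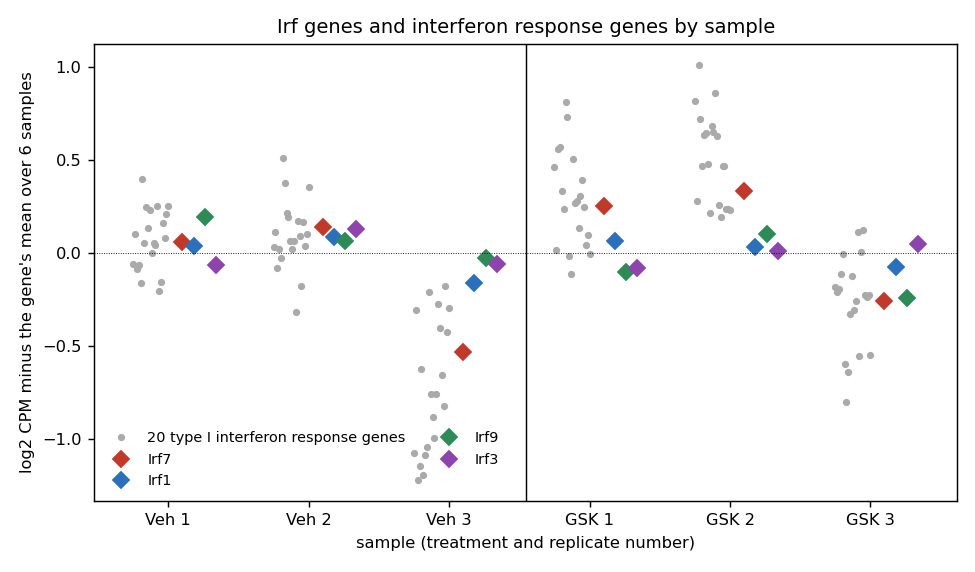
Log2 CPM of each gene minus its own mean over the 6 samples (y axis) in each culture (x axis), for 20 type I interferon response genes (grey points) and for Irf7, Irf1, Irf9 and Irf3 (diamonds). Replicate 3 is low in both treatments for the response genes and for Irf7, at 64.5% and 68.3% of the mean of the other replicates, and Irf3 shows no such drop.

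Among the latent factors, Irf3 (Entrez gene 54131, chromosome 7, 44997648 to 45002848) was at 55.5, 63.5 and 55.8 CPM in Veh and 54.9, 58.5 and 60.1 CPM in GSK. Its groups overlapped, with a log2 fold change of -0.010 (SE 0.065, adjusted p = 0.92, edgeR) and a 95% interval of the fold from 0.90 to 1.09. Irf5 (Entrez gene 27056, chromosome 6, 29526130 to 29541869) had few reads, from 152 to 219 in a library. It was at 10.3, 11.7 and 10.9 CPM in Veh and 7.98, 9.41 and 8.71 CPM in GSK, so all GSK cultures were below all Veh cultures. The log2 fold change was -0.33 (SE 0.12, adjusted p = 0.045, edgeR), near the threshold. DESeq2 gave an adjusted p of 0.11, the fit without a filter on low counts 0.055, and leaving out any library but GSK replicate 2 gave 0.063 to 0.15 (0.063 without Veh replicate 1, 0.15 without Veh replicate 2, 0.095 without Veh replicate 3, 0.15 without GSK replicate 1 and 0.089 without GSK replicate 3).

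Irf5 is best known from macrophages, dendritic cells and B cells. Of 12 myeloid and dendritic cell markers listed, 10 had a row in the table, and these summed to between 6.54 and 9.57 CPM in Veh and between 3.08 and 4.76 CPM in GSK. Only 4 of these could be tested, of which Itgax fell by 1.37 on the log2 scale (adjusted p = 0.0023, edgeR) and Itgam (-0.70, adjusted p = 0.073), Lyz2 (-1.30, adjusted p = 0.29) and Zbtb46 (0.033, adjusted p = 0.96) did not pass. The macrophage markers Csf1r, Cd14, Adgre1 and Fcgr1 and the dendritic cell markers Flt3 and Clec9a had from 0 to 5 counts in a library, and the means of Flt3 and Clec9a were higher in GSK. Their part in the Irf5 result was not tested.

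Levels of different genes were compared as CPM per kilobase of the principal GENCODE transcript, with the spread over the 3 cultures of a group. In Veh the order was Irf1 (128 ± 11.4, SD, n = 3), Irf8 (39.2 ± 1.88), Irf4 (38.2 ± 2.28), Irf7 (36.8 ± 8.62), Irf2 (34.4 ± 2.21), Irf9 (32.6 ± 2.51), Irf3 (28.7 ± 2.25) and Irf5 (4.90 ± 0.329). Only the first and last steps of this order exceeded the spread, since the cultures of each other neighbouring pair overlapped. In GSK, Irf1 (129 ± 6.57) was again first and Irf5 (3.88 ± 0.320) last, and Irf4 (55.9 ± 3.75) stood second, with all its cultures above those of Irf8 (44.8 ± 3.38). From Irf8 through Irf7 (42.7 ± 8.85), Irf2 (33.2 ± 1.67) and Irf9 (29.4 ± 3.55) to Irf3 (28.5 ± 1.31), the cultures of each neighbouring pair overlapped, and those of Irf3 were all above those of Irf5. When the joined length of all annotated exons was used, Irf1 and Irf5 kept their places, but Irf4 was second in Veh as well, and 4 steps in Veh and 5 in GSK exceeded the spread in place of 2 and 3.

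The genes whose log2 CPM followed each member most closely over the 6 samples were found among 10159 genes with a median count of at least 50. These correlations are a description over 6 libraries that share 2 treatments, and with so many genes compared the highest values are bound to be near 1. Genes picked in this way share the member's change with treatment or its low culture by the choice itself, so that likeness is no separate result. For Irf4 they were Tnfsf4, which encodes OX40 ligand (r = 0.996), Cd74, the invariant chain of MHC class II (0.996), and Il20rb, a cytokine receptor chain (0.993), all 3 of which rose (log2 fold changes 1.01, 1.17 and 0.58). Irf7 was followed by Herc6 (0.998), Slfn5 (0.995) and Adar (0.993), none of which passed the test between treatments and all of which were low in replicate 3 of both groups (from 52.5% to 86.3% of the other replicates). For Irf9 the nearest were Kat2b (0.995), H2-Q4 (0.993) and H2-K1 (0.990), the last 2 of them MHC class I genes whose reads may be shared with near-identical relatives. Irf8 had Tma7 (0.997), Poldip2 (0.991) and Timm8b (0.988) closest, Irf1 had Fbxl18 (0.981), Ube2l6 (0.979) and Zdhhc7 (0.975), and Irf5 had Camta2 (0.995), Ncapg2 (0.994) and Fam122a (0.991). Within the family, the pair of members most alike was Irf1 and Irf7 (r = 0.93, and 0.96 for deviations from the group means), followed by Irf2 and Irf9 (0.84) and Irf4 and Irf8 (0.83). The last of these dropped to 0.42 in the deviations, where the difference between treatments is removed.

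Genes next to the members were examined because reads of overlapping genes can be confused, and because the strand setting of the counting was not given. The test was not passed by either neighbour of Irf4, Dusp22, 38001 bases away (log2 fold change 0.045, adjusted p = 0.78, edgeR), and Exoc2, 22535 bases away (-0.069, adjusted p = 0.28). Around Irf8, neither Cox4i1 (0.055, adjusted p = 0.31) nor Mthfsd (0.083, adjusted p = 0.51) passed. Irf5 overlaps Tnpo3, which is transcribed from the other strand, by 1043 bases, and Tnpo3, at 156 CPM in Veh (not scaled for length), had a log2 fold change of 0.10 (adjusted p = 0.12). In the GENCODE annotation Irf3 overlaps Bcl2l12, Irf7 overlaps Phrf1 and Irf9 overlaps Rnf31, and none of these neighbours passed (adjusted p = 0.72, 0.23 and 0.090). The RefSeq region of Irf2 overlaps the predicted genes Gm31172 and Gm39170, GENCODE places predicted genes over Irf1 (Gm17334) and Irf8 (Gm20388), and counts there are uncertain.

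Upstream of the family, the receptors and kinases that carry interferon signals were lower in GSK. Of 7 such genes, 5 fell (15.5% of all genes tested did) and 2 did not pass, with a median log2 fold change of -0.23. Ifngr1, the ligand-binding chain of the interferon gamma receptor, was at 706, 693 and 747 CPM in Veh and 532, 566 and 510 CPM in GSK, without overlap. It fell by 0.42 on the log2 scale (SE 0.044, adjusted p = 3.3e-05, edgeR). Ifngr2, the signalling chain of that receptor, was at 15.6, 14.4 and 13.8 CPM in Veh and 9.66, 9.46 and 8.66 CPM in GSK and was the only one past 1.5-fold (-0.65, adjusted p = 6.0e-04). Jak2 (-0.27, adjusted p = 0.0031), Tyk2 (-0.19, adjusted p = 0.0088) and Ifnar1 (-0.23, adjusted p = 0.011) also fell, and Jak1 (-0.12, adjusted p = 0.35) and Ifnar2 (-0.086, adjusted p = 0.35) did not pass. With a library left out, 4 to 6 of the 7 were lower.

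The adaptors and kinases that activate IRF3, IRF5 and IRF7 were mostly not called. Of 13 genes, 3 rose (16.6% of all genes tested did) and the other 10 did not pass, a share near that of all genes, with a median of 0.031. Chuk, the kinase IKK-alpha, was at 80.2, 93.3 and 83.1 CPM in Veh and 100, 99.0 and 106 CPM in GSK, and had a log2 fold change of 0.25 (adjusted p = 0.0066, edgeR). Traf3, a ubiquitin ligase of the sensing adaptors (0.21, adjusted p = 0.012, and 0.059 without Veh replicate 3), and Myd88, the Toll-like receptor adaptor (0.20, adjusted p = 0.024), were the others. Without Veh replicate 3 only 1 of the 3 passed, and Myd88 also failed without Veh replicate 1 (0.067) or GSK replicate 1 (0.13). Tbk1, the main IRF3 kinase, was at 0.050 (adjusted p = 0.47), and its relative Ikbke was at -0.27 (adjusted p = 0.052), with an adjusted p of 0.0093 in DESeq2 and 1.7e-04 without GSK replicate 2.

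Of 13 partners and co-regulators, 10 were tested, of which 3 fell (15.5% of all genes tested did) and the other 7 did not pass, with a median of -0.025. Irf2bp2, a co-repressor named for its binding to IRF2, was at 67.8, 66.1 and 65.8 CPM in Veh and 51.4, 56.7 and 54.6 CPM in GSK, with every GSK culture below every Veh culture. Its log2 fold change was -0.30 (SE 0.055, adjusted p = 0.0016, edgeR). The AP-1 subunits Jun (-0.34, adjusted p = 0.031) and Junb (-0.17, adjusted p = 0.034) also fell, but Jun lost the call without Veh replicate 1 (0.12), Veh replicate 2 (0.093), GSK replicate 1 (0.11) or GSK replicate 3 (0.096), and Junb without Veh replicate 1 (0.062), Veh replicate 3 (0.15) or GSK replicate 2 (0.095). Only Irf2bp2 passed when Veh replicate 1 was left out. Batf, the usual partner of IRF4 in T cells, was at 28.9 ± 0.941 CPM (SD, n = 3) in Veh and 28.0 ± 0.852 CPM in GSK (adjusted p = 0.64), and Batf3 (0.22, adjusted p = 0.15) and Stat2 (0.15, adjusted p = 0.31) did not pass. Spi1, Spib and Batf2, partners of IRF4 and IRF8 in B cells and myeloid cells, had too few reads to be tested.

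**Figure D4:**
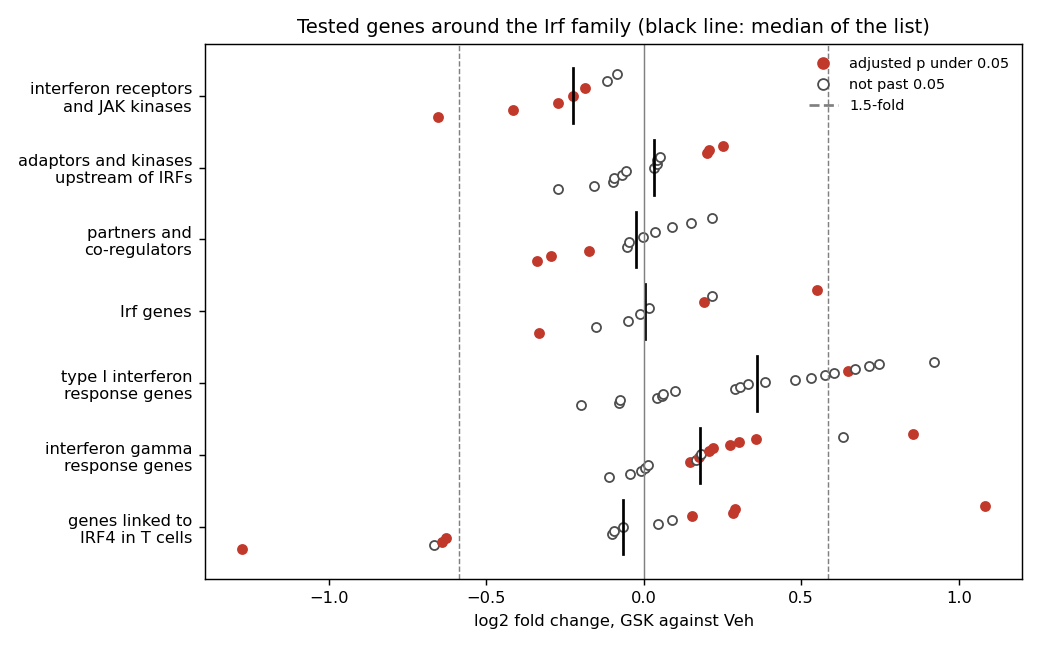
Log2 fold change, GSK against Veh (x axis), of every tested gene in 7 lists ordered from receptors to targets, with filled red points past an adjusted p of 0.05, a black line at each list's median and dashed lines at 1.5-fold. The medians run from -0.23 for the interferon receptors and JAK kinases to 0.36 for the type I interferon response genes. Of these, 1 of 20 passed in the main fit, which has no replicate block.

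Downstream, the type I interferon response genes, targets of IRF9, IRF3 and IRF7, had the highest median of the lists (0.36). All 20 were lowest in replicate 3 of both groups, a difference that a fit without a replicate block counts as spread. In the main fit, which has no such block, 1 of 20 rose, beside 16.6% of all genes tested. This was Zbp1, a nucleic acid sensor, at 155, 152 and 109 CPM in Veh and 226, 239 and 187 CPM in GSK, with no overlap. Its log2 fold change was 0.65 (SE 0.17, adjusted p = 0.045, edgeR). The adjusted p was 0.076 without Veh replicate 1, 0.076 without Veh replicate 2, 0.10 without GSK replicate 1, 0.14 without GSK replicate 2 and 0.060 without GSK replicate 3. In DESeq2 it was 0.0030, and 8.9e-05 in an edgeR fit with the replicate numbers as a block, which the labels do not tie to animals. The antiviral exonuclease gene Isg20 (0.53, adjusted p = 0.064), the deubiquitinase-like brake Usp18 (0.67, adjusted p = 0.10) and the tetherin gene Bst2 (0.33, adjusted p = 0.14) had the next smallest p-values. In DESeq2 the adjusted p was 0.0016 for Isg20, 0.052 for Usp18 and 0.0064 for Bst2. With the replicate block in edgeR it was 0.0011 for Isg20, 0.0094 for Usp18 and 0.0099 for Bst2. Usp18 was at 38.1, 29.6 and 21.9 CPM in Veh and 44.9, 57.3 and 40.0 CPM in GSK, without overlap but with a wide spread in each group. The number that passed moved with the libraries kept, from 0 without GSK replicate 1 or GSK replicate 2 to 2 without Veh replicate 2. DESeq2 gave 3, the fit without robust shrinkage 5 and the fit with the replicate block 11, so the alternatives together gave 0 to 11.

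Of the interferon gamma response genes linked to IRF1, some rose, while Irf1 RNA itself had a log2 fold change of 0.017. Of 16 tested, 8 rose (16.6% of all genes tested did) and the other 8 did not pass, with a median of 0.18. Gbp4, a guanylate-binding GTPase, was at 636, 659 and 569 CPM in Veh and 759, 794 and 744 CPM in GSK (log2 fold change 0.30, SE 0.051, adjusted p = 9.6e-04, edgeR). Socs1, the feedback inhibitor of JAK kinases, was at 67.3, 79.9 and 66.3 CPM in Veh and 95.3, 90.9 and 87.3 CPM in GSK (0.36, adjusted p = 0.0024). The immunoproteasome genes Psmb8 (0.18, adjusted p = 0.0024) and Psmb10 (0.22, adjusted p = 0.0060) rose, and Psmb9 (-0.043, adjusted p = 0.61) did not pass. The chemokine gene Cxcl10 was past 1.5-fold (0.85, adjusted p = 0.033), but the groups overlapped and the call was lost without Veh replicate 1 (0.086), Veh replicate 3 (0.11), GSK replicate 1 (0.14) or GSK replicate 2 (0.064). Members of the Gbp family are close in sequence and may share reads. Without Veh replicate 3 or without GSK replicate 1, 4 genes of this list rose in place of 8.

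Among 13 genes linked to IRF4 in T cells, 4 rose and 3 fell, beside 16.6% and 15.5% of all genes tested. Rel, an NF-kappa-B subunit, was at 56.5, 52.0 and 56.2 CPM in Veh and 65.4, 72.8 and 63.1 CPM in GSK, and had a log2 fold change of 0.29 (SE 0.064, adjusted p = 0.0045, edgeR). Nfatc2, a calcium-regulated factor downstream of the T-cell receptor, was at 186, 174 and 168 CPM in Veh and 205, 226 and 211 CPM in GSK (0.28, adjusted p = 0.0013). Both had all GSK cultures above all Veh cultures, as did 5 of the 13 genes in this list and 23.7% of all genes tested. Hif1a also rose (0.15, adjusted p = 0.0095, edgeR). Nfatc1, a relative of Nfatc2 (-0.10, adjusted p = 0.16), and Prdm1, which encodes BLIMP-1 (-0.093, adjusted p = 0.51), did not pass. The memory-associated repressor Bach2 (-0.63), Tbx21 (-0.64) and Tcf7 (-1.28) fell past 1.5-fold, and Eomes (1.08) rose. Without GSK replicate 2, 5 genes of this list were lower in place of 3.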

How the data were processed

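Poly(A)+ RNA was sequenced from 6 cultures, and the samples were grouped by their titles. Per the labels and the study's methods, the authors trimmed reads with Trimmomatic, mapped them to GRCm38 with HISAT2 (version 2.1.0) and counted them per gene with HTSeq (version 0.11.2). The deposited values are these raw counts, not normalized. The annotation release and strand setting were not given in the sources used here. The study called genes with DESeq2 (version 1.22.2) at a fold change of 1.5 and a q-value of 0.05.

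From the counts, edgeR (version 4.0.16, R version 4.3.3) was run with TMM scaling, filterByExpr (4583 of 16281 genes left out) and the robust quasi-likelihood test over all genes, without a replicate block. Standard errors and 95% intervals came from the test statistic. Intervals and p-values measure the spread between these cultures. Within the groups no pair of libraries agreed within sampling noise (chi-square over its degrees of freedom, 4.07 to 9.38).

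Lengths and strands came from GENCODE M21 (GRCm38), and coordinates and promoters from RefSeq tables of GRCm38.p6, in which all 8 members matched. Per-length levels use the APPRIS principal transcript. The members, the gene lists and the rule for named genes were chosen with earlier results of these data known. That rule took the members, their overlapping and nearest tested neighbours, the 3 genes most correlated with each, and from each list the genes past both thresholds or otherwise up to 4 with the smallest p. Other list members and single markers were named after their values were seen. Some genes that the rule names are not reported here.

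Alternatives were DESeq2 (version 1.42.0), scaling by RLE, no filter, a filter of at least 1 CPM in 3 samples, no robust shrinkage, the replicate block, the adjusted p without a fold change, and each library left out. The joined exon length was added after seeing the data.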

Additional observations from a re-analysis of the deposited data

How the results depend on the processing

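In each of the 12 alternative fits Irf4 stayed higher at an adjusted p under 0.05, with log2 fold changes from 0.51 to 0.60. Irf8 lost its call in 5 of 12 and Irf5 in 8 of 12. The cause of these losses was not tested. None of the 76 named genes tested changed direction where the main or the alternative fit passed 0.05. Genes that passed in neither could change sign, as did Irf1 (log2 fold changes from -0.053 to 0.068), Irf2 (-0.087 to 0.0022) and Irf3 (-0.044 to 0.056). With libraries left out in turn, from 1 to 4 Irf members passed, 1 to 2 of them higher and 0 to 2 lower, and 0 to 1 also passed the fold change. With DESeq2, without a filter on low counts and with the replicate block, 0 members were lower in place of 1. Over the whole table, the adjusted p alone gave 1941 higher and 1819 lower genes in place of 260 and 479, and leaving out a library gave 224 to 291 and 403 to 547. Of the type I interferon response genes, 3 were higher with DESeq2, 0 without a filter on low counts, 11 with the replicate block and 5 without robust shrinkage, in place of 1, and 0 to 2 with a library left out. Left-out libraries also gave 1 to 2 lower partners, 1 to 3 higher adaptors and kinases, 4 to 10 higher interferon gamma response genes and 3 to 5 lower IRF4-linked genes. Per kilobase of joined exons, 4 steps of the order of levels in Veh and 5 in GSK exceeded the spread, in place of 2 and 3.

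The replicate numbers of the labels name no shared animal, and the study does not say which cultures shared a mouse, so the replicate block was used only as an alternative. Deviations of same-numbered libraries from their group means correlated at -0.052, -0.081 and 0.16 for numbers 1, 2 and 3. A correlation over all genes does not tell whether same-numbered cultures shared an animal. Of the type I interferon response genes, 20 of 20 were lowest in replicate 3 of both groups, beside 13.9% of all genes tested. The block gave 253 higher and 447 lower genes over the whole table. Under the block Irf7 passed (log2 fold change 0.22, adjusted p = 0.013, edgeR), Irf8 (adjusted p = 0.059) and Irf5 (0.055) did not, and Irf4 did (2.5e-04). RLE scaling moved the median log2 fold change of all genes from -0.0039 to -0.0048.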
